A study of Rattus norvegicus with 6 samples.

Results

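Growth hormone, prolactin and IGF signalling in rat liver was examined through 9 genes: the receptors Ghr and Prlr, the kinase Jak2 and the transcription factor Stat5b, the feedback inhibitors Socs2 and Cish, and the secreted products Igf1, Igfals and Igfbp3. They were taken as every non-control probe whose transcript accession maps to one of these rat symbols, which gave 13 probes for 9 of the 15170 genes with a symbol on the array. All 13 probes were well above background on all 6 arrays. The livers came from male rats labelled Wistar Hannover (RCCHan:WIST), bought at the age of 4 weeks and quarantined for 1 week. The 3 control rats received corn oil, and the 3 PCN rats received pregnenolone-16α-carbonitrile at 100 mg/kg per day; both were dosed by oral gavage for 7 days. PCN, a synthetic steroid, is an agonist of the rodent pregnane X receptor, a nuclear receptor that controls drug metabolism in liver. Each array measured 1 liver, so every group mean below has n = 3 rats.

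Growth hormone and prolactin are pituitary hormones whose receptors carry no enzyme of their own and work through the bound kinase JAK2. JAK2 phosphorylates STAT5 proteins, which enter the nucleus and switch on Igf1, Igfals and the inhibitors Socs2 and Cish, and these inhibitors then dampen the receptor. The liver is the main source of circulating IGF-I, which travels in a complex with a binding protein, mostly IGFBP-3, and the acid-labile subunit encoded by Igfals. In rats the liver also reads the sex-specific rhythm of growth hormone secretion, pulsed in males and nearly continuous in females, and many cytochrome P450 genes follow it.

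The genes that changed with PCN, described below, were Prlr, Igfals and Cish, and the DNA just upstream of their start sites is shown because STAT5 binds the palindrome TTCNNNGAA, where N is any base. The 4 windows are the 250 bases before each start listed by RefSeq (build GRCr8), in lower case, with each match to the motif in capitals. Since the motif reads the same on both strands, 1 search covers both.

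Cish, chr8:116850719-116850968, plus strand: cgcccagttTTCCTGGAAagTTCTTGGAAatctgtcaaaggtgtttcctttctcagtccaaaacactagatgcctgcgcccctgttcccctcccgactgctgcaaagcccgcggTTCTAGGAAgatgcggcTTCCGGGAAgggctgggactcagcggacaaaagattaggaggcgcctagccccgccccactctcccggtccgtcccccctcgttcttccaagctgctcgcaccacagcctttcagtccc

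Prlr, first listed start, chr2:60861515-60861764, plus strand: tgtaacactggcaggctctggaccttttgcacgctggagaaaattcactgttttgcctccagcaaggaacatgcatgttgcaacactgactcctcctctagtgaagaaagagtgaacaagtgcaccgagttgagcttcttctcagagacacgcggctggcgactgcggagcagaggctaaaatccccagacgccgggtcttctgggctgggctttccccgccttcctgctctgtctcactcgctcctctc

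Prlr, second listed start, chr2:60909409-60909658, plus strand: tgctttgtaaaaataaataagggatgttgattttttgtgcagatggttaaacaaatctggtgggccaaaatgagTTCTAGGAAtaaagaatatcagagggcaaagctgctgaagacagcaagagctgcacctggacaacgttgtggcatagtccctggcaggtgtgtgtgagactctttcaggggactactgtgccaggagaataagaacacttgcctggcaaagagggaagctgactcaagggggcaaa

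Igfals, chr10:14403600-14403849, plus strand: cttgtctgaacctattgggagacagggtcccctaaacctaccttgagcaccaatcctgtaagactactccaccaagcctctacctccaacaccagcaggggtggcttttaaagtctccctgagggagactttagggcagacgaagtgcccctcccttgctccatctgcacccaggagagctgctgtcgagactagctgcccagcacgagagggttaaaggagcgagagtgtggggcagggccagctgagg

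The motif was present in 7.67% of all windows of this length (2566 of 33465). Of the 9 listed windows of 8 of the genes, 2 held it. The Cish window held 4 matches, TTCCTGGAA, TTCTTGGAA, TTCTAGGAA and TTCCGGGAA, which begin 241, 230, 136 and 119 bases before the start. At least 4 matches occurred in 2 of the 33465 windows. The window of the second Prlr start held 1 match, TTCTAGGAA, which begins 176 bases before it. These are matches of letters and were not tested for binding.

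Of the 9 genes, 3 fell with PCN and 0 rose, each gene counted at its brightest probe. The prolactin receptor Prlr fell 2.72-fold, the feedback inhibitor Cish 1.72-fold and the acid-labile subunit gene Igfals 1.69-fold. The other 6 genes, which include the growth hormone receptor Ghr and its main product Igf1, did not pass the test (limma, Benjamini-Hochberg adjusted p under 0.05 over all 18329 tested probes). The rate over the whole array was also high: 18.9% of tested probes passed, and 14.7% passed with lower signal under PCN. Counted by gene, 16% of the 10044 tested genes with a symbol passed, 10.8% lower and 5.2% higher. The median change of the 9 genes was -0.20 on the log2 scale, against -0.02 over all tested genes with a symbol. The median of the 9 depended on the scaling: it was -0.45 with E1A scaling, -0.06 with cyclic loess, -0.05 with median scaling, -0.02 with normexp and 0.01 with quantile normalization. At an unadjusted limma p under 0.05, 5 of the 13 probes passed, as did 6169 of all 18329 tested probes. The PCN arrays lay wholly outside the control arrays for 9 of the 13 probes, and the same held for 40.5% of all tested probes.

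**Figure D1:**
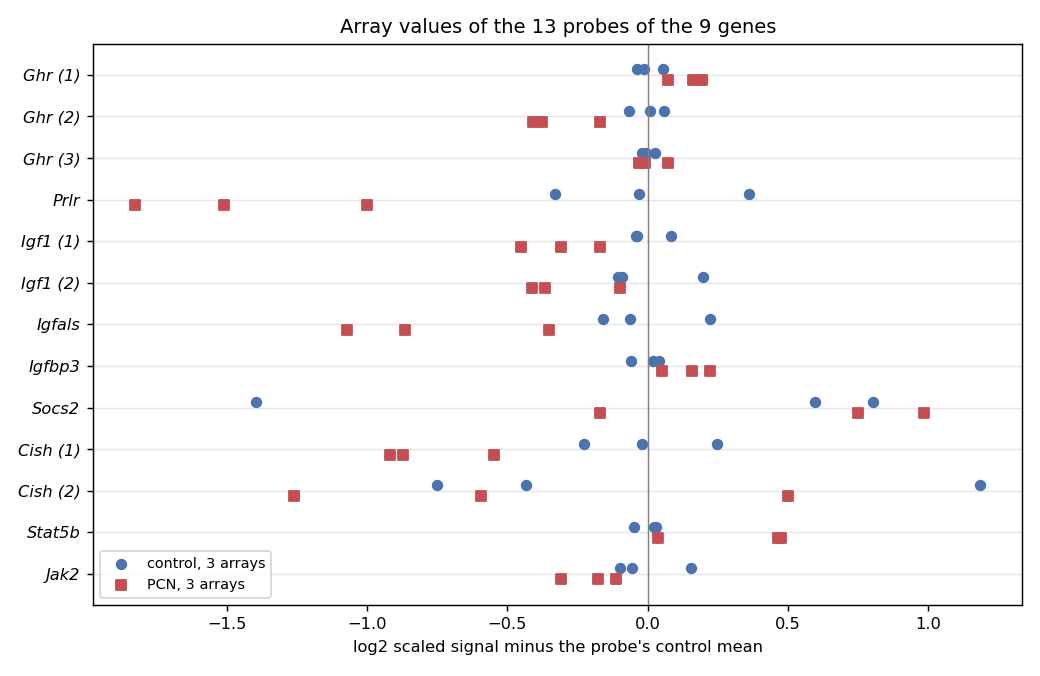
Values of the 13 probes on each array, as log2 scaled signal minus the mean of the 3 control arrays of the same probe (x axis), with control arrays as blue circles and PCN arrays as red squares. Numbers in brackets rank the probes of 1 gene from brightest to dimmest. Prlr, Igfals and the brighter Cish probe show PCN arrays below every control array. The same holds, by smaller gaps, for the second Ghr probe, the brighter Igf1 probe and Jak2. Socs2 and the dimmer Cish probe spread over more than 1 log2 unit within a group.

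The values that follow are log2 processed signals minus the 75th percentile of the array, so that 0 is the level of that percentile and a difference of 1 is a doubling. Levels of different probes are not compared with each other, since each probe has its own brightness. A change is PCN minus control, given with its moderated standard error from limma. That error draws each probe's variance toward a value shared by all tested probes, so it does not rest on the probe's own arrays alone. In bulk liver RNA, fewer cells that carry a transcript and less of it per cell cannot be told apart.

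Among the receptors, Prlr gave -0.38, -0.08 and 0.32 in the 3 control livers and -1.56, -1.87 and -1.05 in the PCN livers, here and below in the order of the arrays' numbers. The highest PCN array lay 0.67 below the lowest control array, so the groups stood well apart. Prlr, which binds prolactin and is known to be higher in female than in male rat liver, fell by 1.45 ± 0.26 on the log2 scale (limma adjusted p = 0.0113), with a 95% interval of the change from -2.05 to -0.84. Its probe was spotted 10 times on each array, and those spots differed by an SD of only 0.050 to 0.075, against SDs between rats of 0.35 (control) and 0.42 (PCN). The fall passed the test under all 18 alternative analyses.

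The growth hormone receptor Ghr had 3 probes that did not move together. The brightest gave 2.98, 3.05 and 2.96 on the control arrays and 3.16, 3.19 and 3.07 on the PCN arrays. All 3 PCN arrays lay just above the control arrays, with a change of 0.14 ± 0.09 (limma adjusted p = 0.342). The second probe gave 2.52, 2.39 and 2.47 in control and 2.29, 2.05 and 2.08 with PCN. Here all 3 PCN arrays lay below the control arrays, with a change of -0.32 ± 0.11 (limma adjusted p = 0.0883), which passed with E1A scaling (-0.57, adjusted p = 0.0166) and with normexp (-0.34, adjusted p = 0.0475). The dimmest probe gave 0.93, 0.97 and 0.92 against 1.01, 0.93 and 0.91, and its groups overlapped (change 0.01 ± 0.09). Over the 6 arrays the first and second probes correlated at -0.77, given as a description of arrays of 2 groups that share a scaling. The files do not tell which form of the receptor transcript each probe reads.

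Jak2, the kinase bound to both receptors, gave -2.69, -2.48 and -2.73 in control and -2.81, -2.75 and -2.94 with PCN. The PCN arrays lay below the control arrays by a narrow gap of 0.01, and the change of -0.20 ± 0.12 did not pass the test (limma adjusted p = 0.274). Stat5b, the STAT that carries the pulsed growth hormone signal in male liver, gave -2.29, -2.36 and -2.28 in control and -1.84, -2.27 and -1.83 with PCN. PCN arrays 1 and 3 were higher, whereas PCN array 2 stayed beside the control arrays. The change of 0.33 ± 0.14 did not pass (limma adjusted p = 0.162), and it did pass with quantile normalization (0.50, adjusted p = 0.0430), with median scaling (0.47, adjusted p = 0.0470) and without PCN array 2 (0.47, adjusted p = 0.0321).

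The feedback inhibitors gave unequal results. Cish encodes an SH2 protein that is induced by STAT5 and blocks its docking at the receptor. Its brighter probe gave -1.80, -1.54 and -2.01 in control and -2.33, -2.65 and -2.70 with PCN. All 3 PCN arrays lay below all control arrays, and the level fell by 0.78 ± 0.16 on the log2 scale (limma adjusted p = 0.0198). The other Cish probe gave -2.72, -0.79 and -2.41 in control and -2.57, -1.48 and -3.24 with PCN. Array 2 of each group stood high, the groups overlapped, and the change was -0.45 ± 0.61 (limma adjusted p = 0.648). The brightness of these probes differed little (means over the 6 arrays of -2.17 and -2.20), so the choice of the brighter probe as the gene's value rests on a small margin, and each probe was spotted once per array. The Cish call was lost without a filter on dim probes (limma adjusted p = 0.0571) and without control array 1 (adjusted p = 0.0613), control array 2 (0.0556), PCN array 2 (0.0577) or PCN array 3 (0.0577), and with normexp background correction the change was -0.42 (limma adjusted p = 0.0380).

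Socs2 encodes the inhibitor that limits growth hormone action, and its loss in mice gives overgrowth. It gave -1.39, 0.61 and 0.81 in control and 0.76, 0.99 and -0.16 with PCN. Control array 1 stood far below the other control arrays and PCN array 3 below the other PCN arrays, so the groups overlapped. The change of 0.52 ± 0.61 did not pass (limma adjusted p = 0.596) and turned to -0.18 without control array 1. Its 10 spots per array differed by an SD of 0.046 to 0.069, while the SDs between rats were 1.21 (control) and 0.61 (PCN). Pooled over both groups, the SD was 0.96, above that of 99.2% of tested probes.

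The secreted products of the axis follow. Igf1, the gene of the hormone IGF-I, had 2 probes. The brighter gave 8.22, 8.22 and 8.34 in control and 8.09, 7.81 and 7.95 with PCN. Each PCN array lay below each control array, but the change of -0.31 ± 0.11 did not pass after adjustment (limma adjusted p = 0.101). The other Igf1 probe gave 7.11, 7.12 and 7.41 in control and 7.11, 6.80 and 6.85 with PCN, a change of -0.29 ± 0.14 (limma adjusted p = 0.190). Its lowest control array and highest PCN array met at the same level. The probes followed each other over the 6 arrays, with a correlation of 0.94, again a description. Both passed only with scaling to the spiked-in E1A control RNA (limma adjusted p = 0.0144 and 0.0302), which moves every probe down as described below.

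Igfals, whose protein holds IGF-I and its binding protein in the circulation, gave 2.50, 2.59 and 2.88 in control and 2.31, 1.58 and 1.79 with PCN. PCN array 1 lay close under the control arrays and the other PCN arrays clearly lower. The level fell by 0.76 ± 0.21 on the log2 scale (limma adjusted p = 0.0454), with a 95% interval of the change from -1.25 to -0.27. This call was close to the threshold. It held in 10 of 18 alternatives and was lost, among others, with median scaling (limma adjusted p = 0.0621), without a filter on dim probes (0.107), and without control array 1 (0.0831), control array 2 (0.0992), control array 3 (0.132), PCN array 2 (0.104) or PCN array 3 (0.114).

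Igfbp3, the main carrier of IGF-I in blood and in liver a gene of non-parenchymal cells, gave 3.69, 3.72 and 3.62 in control and 3.90, 3.83 and 3.72 with PCN. The lowest PCN array lay just above the highest control array, and the change of 0.14 ± 0.10 did not pass (limma adjusted p = 0.354). Its 95% interval runs from -0.09 to 0.38 on the log2 scale. For the brightest Ghr probe the interval runs from -0.08 to 0.37, for Jak2 from -0.47 to 0.07 and for Socs2 from -0.93 to 1.97.

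**Figure D2:**
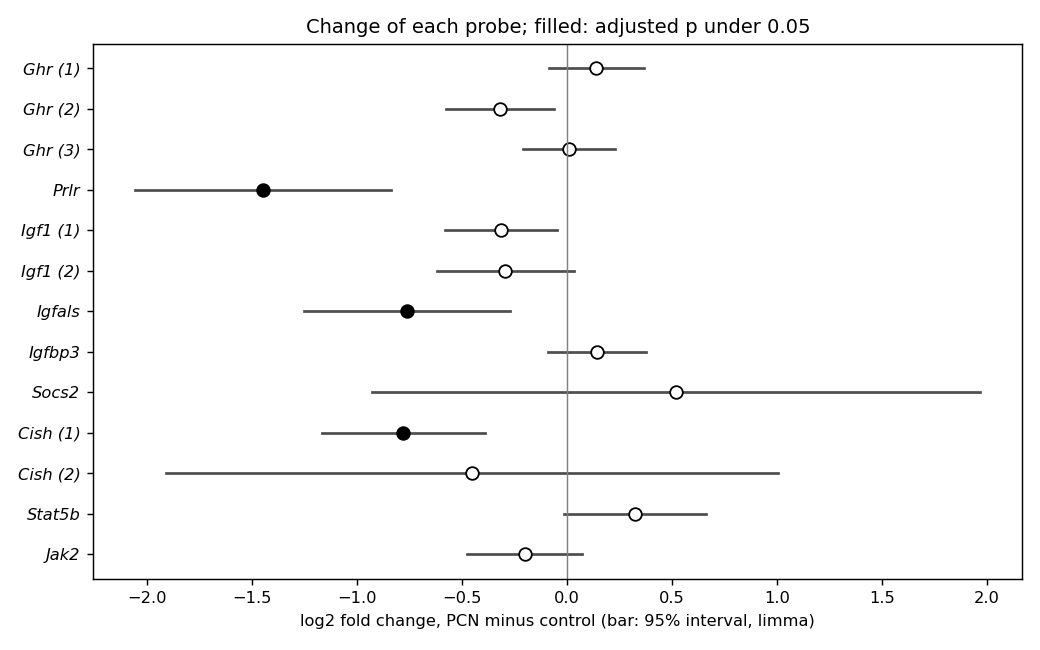
Change of each of the 13 probes on the log2 scale, PCN minus control (x axis), with its 95% interval from limma (n = 3 arrays per group). Filled points passed the test: Prlr at -1.45, Cish (1) at -0.78 and Igfals at -0.76. The intervals of Socs2 and Cish (2) are the widest of the 13.

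The scale of these changes depends on how arrays are brought to a common level. With 75th percentile scaling the median change of all tested probes was -0.06; it was 0.06 with quantile normalization, 0.09 with median scaling and -0.31 with E1A scaling. Of the probes that passed, 78% were lower in the main analysis. That share was 62% after cyclic loess, 63.5% after normexp, 53.4% after quantile normalization, 51.8% after median scaling and 96.5% after E1A scaling. Relative to the median probe, Prlr changed by -1.39, Cish by -0.72 and Igfals by -0.70 in the main analysis, and the values were the same with median and E1A scaling, which move all probes of an array alike. With quantile normalization they were -1.40, -0.66 and -0.81. Prlr, Cish and Igfals were lower with PCN under every scaling tried, whereas the brightest Ghr probe and Igfbp3 turned to -0.11 with E1A scaling and Jak2 to 0.01 with quantile normalization.

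Of 23 listed receptor, kinase, STAT, phosphatase and inhibitor genes, 16 were tested, of which 0 rose, 2 fell and 14 did not pass, with a median change of -0.06. That median ran from -0.31 to 0.09 over the 18 alternatives. The share that passed, 12.5%, lay near the 16% of all tested genes with a symbol. Socs3, an inhibitor induced by cytokines and growth hormone, fell by 0.75 ± 0.15 (limma adjusted p = 0.0185). Pias1, an inhibitor of STAT proteins, fell by 0.47 ± 0.12 (limma adjusted p = 0.0357), at a dim signal that was above background on 2 of 3 PCN arrays. It passed in 4 of 17 alternatives, in 1 of 6 with an array left out (PCN array 1), and gave 0.08 with normexp. Socs3 passed in 12 of 18, and not without control array 1, control array 3 or PCN array 3.

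In the IGF and insulin list, 17 of 23 genes were tested, of which 1 rose, 2 fell and 14 did not pass, with a median of -0.02. The share that passed, 17.6%, was again near the 16% of all tested genes with a symbol. The list median ran from -0.27 to 0.13 over the 18 alternatives. Igfbp7, a low-affinity binding protein found mainly in vessel and stellate cells, fell by 1.20 ± 0.12 (limma adjusted p = 0.0017) and passed under all 18 alternatives. Htra1, a secreted protease that can cleave binding proteins, fell by 0.42 ± 0.11 (limma adjusted p = 0.0384) and passed in 10 of 18, with PCN array 3 the only array that could be left out. Gab1, an adaptor below growth factor receptors, rose by 0.55 ± 0.12 (limma adjusted p = 0.0233) and passed in 8 of 18, and not without control array 2 or 3 or PCN array 1 or 3. The signal of Igf1r, the IGF-I receptor gene, was above background on 0 arrays, and it was not tested.

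Of 11 genes known for the male growth hormone pattern, 10 were tested, of which 3 rose, 1 fell and 6 did not pass, with a median of 0.22. The share that passed was 40%, against 16% of all tested genes with a symbol. The list median ran from -0.03 with E1A scaling to 0.37 with median scaling. The risers were Cyp3a18 (8.58-fold, SE 0.15 on the log2 scale, limma adjusted p = 0.0002), Cyp2a2 (1.05 ± 0.18, adjusted p = 0.0107) and Cyp3a2 (0.89 ± 0.10, adjusted p = 0.0026). These are steroid-hydroxylating cytochromes P450, and the Cyp3a genes are also textbook targets of the pregnane X receptor, so their list is not one of growth hormone targets alone. Mup4, a pheromone carrier protein made in male liver, fell by 0.79 ± 0.17 (limma adjusted p = 0.0207), and its other probe gave -1.35. The Mup4 call was lost in 5 of 18 alternatives, among them without control array 1, 2 or 3 or PCN array 3, and urinary protein genes are close copies whose probes may share signal. Cyp2c11, the male-specific P450 most used as a marker of pulsed growth hormone, gave 5.79, 5.57 and 5.15 in control and 6.03, 5.62 and 5.85 with PCN. Its groups overlapped, and the change of 0.33 ± 0.19 did not pass (limma adjusted p = 0.284).

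Of 10 genes known for the female pattern, 8 were tested, of which 4 rose, 1 fell and 3 did not pass, with a median of 0.52. The share that passed was 62.5%, against 16% of all tested genes with a symbol. The list median ran from 0.26 to 0.74 over the 18 alternatives. Sult2a2 rose by 4.84 ± 0.71 and Sult2a6 by 2.34 ± 0.34 (limma adjusted p = 0.0063 and 0.0062). Both encode sulfotransferases of steroids and bile acids, and the Sult2a family too is known to respond to pregnane X receptor agonists. Cyp2c12, the female-specific steroid sulfate hydroxylase, gave -0.81, -0.01 and -0.37 in control and 1.52, 1.88 and 0.29 with PCN. All PCN arrays lay above the control arrays, and the level rose by 1.63 ± 0.42 (limma adjusted p = 0.0390). Cyp2a1, a testosterone hydroxylase, rose by 0.74 ± 0.19 (limma adjusted p = 0.0371), and Srd5a1, which reduces testosterone, fell by 0.99 ± 0.22 (adjusted p = 0.0247) at both of its probes. The calls of Cyp2c12 and Cyp2a1 each held in 10 of 18 alternatives and were both lost with E1A scaling (limma adjusted p = 0.0592 and 0.0880) and without a filter on dim probes (0.0877 and 0.0925). With an array left out, that of Cyp2c12 held in 1 of 6 analyses (without PCN array 3), that of Cyp2a1 in 1 of 6 (without PCN array 2), and that of Srd5a1 was lost when any of the 3 control arrays was left out.

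**Figure D3:**
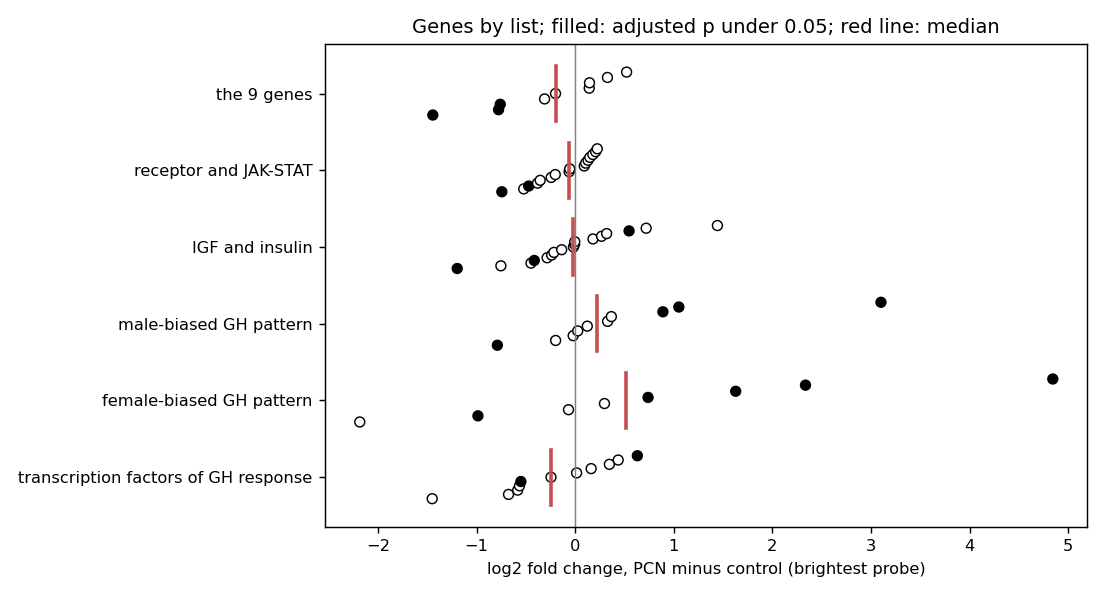
Change on the log2 scale, PCN minus control (x axis), of each tested gene in 6 gene lists, at its brightest probe. Filled points passed the test, and red lines mark the list medians of the main analysis, from -0.25 for the transcription factors to 0.52 for the female-biased genes.

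Transcription factors tied to the growth hormone response were listed as 14 genes, of which 11 were tested, 1 rose, 1 fell and 9 did not pass, with a median of -0.25. The share that passed, 18.2%, was near the 16% of all tested genes with a symbol. The list median ran from -0.50 to -0.10 over the 18 alternatives. Hnf4a, a master regulator of hepatocyte genes, rose by 0.63 ± 0.13 (limma adjusted p = 0.0165), a call that held in 14 of 18 alternatives and was lost, among others, without control array 3. The glucocorticoid receptor Nr3c1 fell by 0.55 ± 0.12 (limma adjusted p = 0.0244), but its other probe gave 0.01, and the call held in 10 of 18 alternatives (not without control array 2 or 3 or PCN array 1 or 3).

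Several genes under the control of growth hormone or insulin differed more between rats of 1 group than between the group means, and they are named here after their values were seen. Bcl6, a repressor that STAT5 lowers, gave 3.51, -0.71 and -0.27 in control and -0.81, -1.05 and 0.02 with PCN. Onecut1, the hepatocyte factor HNF6 that growth hormone raises, gave -0.05, 2.72 and 2.57 in control and 2.10, 0.82 and 0.28 with PCN. Control array 1 was thus the highest of its group for Bcl6 and the lowest for Onecut1, and it was also the lowest for Socs2. Against the mean of the other control arrays, control array 1 differed by -2.10 for Socs2, -2.70 for Onecut1 and 4.00 for Bcl6. PCN array 3 against the other PCN arrays differed by -1.03, -1.18 and 0.95 for the same genes. For Onecut1, however, PCN array 1 (2.10) stood further from the other PCN arrays. Igfbp2, a binding protein raised when insulin and growth hormone are low, gave 1.05, 3.80 and 1.79 in control and 3.66, 3.83 and 3.47 with PCN. Its PCN arrays were alike and its control arrays were not. Igfbp1, a binding protein that insulin lowers within hours, gave 4.04, 4.12 and 2.67 against 3.38, 2.72 and 2.48. Against the other arrays of its group, control array 1 differed by -1.75 for Igfbp2 and 0.65 for Igfbp1. PCN array 3 differed by -0.28 and -0.57 for these genes. None of these 4 genes passed the test (limma adjusted p = 0.386 for Bcl6, 0.603 for Onecut1, 0.169 for Igfbp2 and 0.266 for Igfbp1), and their spread within groups exceeded that of 97.5% or more of tested probes. What sets these rats apart was not tested.

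**Figure D4:**
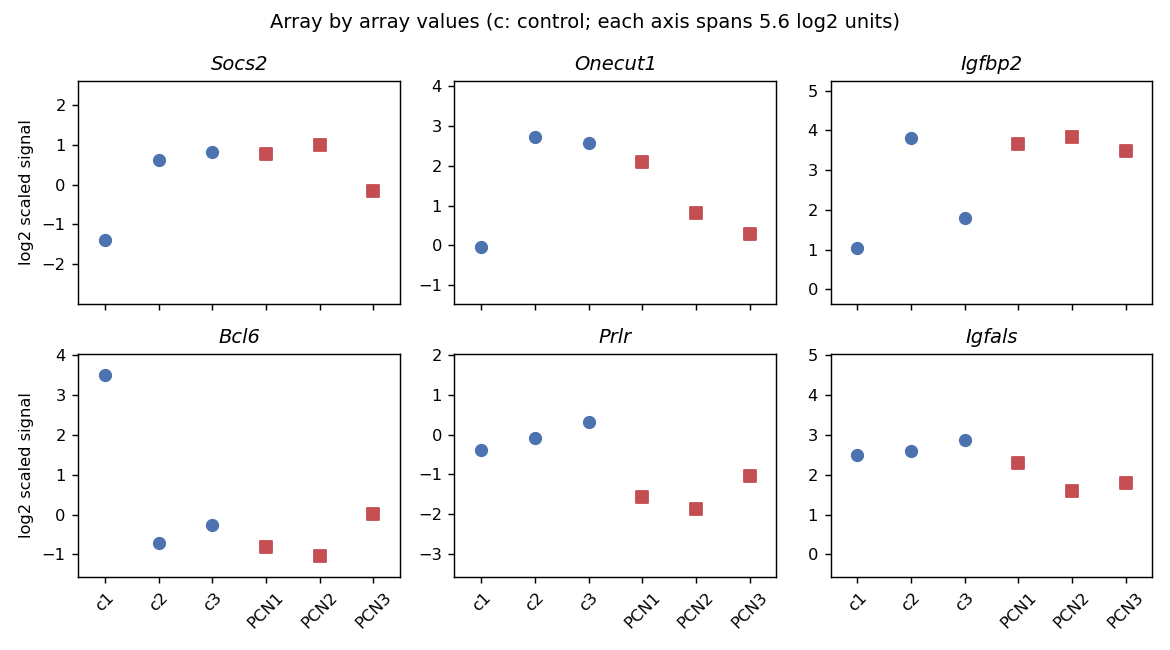
Log2 scaled signal (y axis) of 6 genes on control arrays 1 to 3 (c1 to c3, blue circles) and PCN arrays 1 to 3 (red squares); every axis spans the same number of log2 units, and levels are not comparable between panels. Control array 1 stands apart for Socs2 (-1.39), Onecut1 (-0.05) and Bcl6 (3.51), while Prlr and Igfals separate the groups.

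By a fixed rule, the named genes nearest in pattern to each gene that fell were sought. The rule compared their 6 array values, each minus the gene's own control mean. Of the 10043 other tested genes with a symbol, those with provisional symbols, such as LOC or RGD numbers, were left out. The nearest to Prlr was Crybb2, with a root mean square difference of 0.16 on the log2 scale, followed by Vom2r47 (0.19) and Spag5 (0.19). The nearest to Igfals were Has1 (0.042), Fuom (0.11) and Zfp316 (0.11). The nearest to Cish were Dgki (0.055), Mageb7 (0.066) and Zbed5 (0.068). Nearness over 6 arrays is a description of the pattern only.

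The liver label was checked with 6 hepatocyte markers, all above background, of which 0 passed the test. Alb gave 0.03 and Ttr 0.01, and the median of the 6 was 0.06. The summed scaled signal of the 6 ran from 1685 to 1793 in control. On the PCN arrays it was 1836, 1585 and 2073, a wider spread than in control. Of 9 Kupffer cell markers, 0 passed. All 9 had a change below 0 (median -0.39), as did 5251 of the 10044 tested genes with a symbol. Over the 18 alternatives the median of the 9 ran from -0.64 with E1A scaling to -0.17 without PCN array 3. Their summed scaled signal ran from 64.4 to 74.7 in control and was 66.9, 64.9 and 46.4 on the PCN arrays, so that PCN array 3 stood lowest. Of 9 stellate cell markers 1 rose, Rgs5, and 2 fell, Lrat and Acta2 (summed signal 14.0 to 15.0 against 12.8 to 15.1). The Acta2 call was lost, among others, without control array 1 or 3 or PCN array 2 or 3. Of 4 T cell markers 2 fell, Cd3d and Lck (0.572 to 0.722 against 0.404 to 0.510). The shares that passed were 33.3% of stellate and 50% of T cell markers, against 16% of all tested genes with a symbol. Cd3d passed in all 18 alternatives and Lck in 7 of 17, and with normexp Lck gave 0.06 and the T cell median was 0.07. Endothelial markers (0 of 6 passed) summed to 27.2 to 30.3 against 25.9 to 29.8, and cholangiocyte markers (0 of 4 passed) to 0.433 to 0.536 against 0.559 to 0.659. The part of these cells in the changes above was not tested. Arrays of 1 group correlated at 0.990 to 0.993 and arrays of different groups at 0.975 to 0.982 over tested probes. All control arrays lay on 1 slide with 1 scan and all PCN arrays on another, and the effects of slide and drug cannot be told apart in any comparison given here.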

How the data were processed

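Total RNA of 6 livers (100 ng each, labelled with Cy3) was hybridised to 1-colour Agilent arrays, per the labels. The deposited intensity values were made as background-subtracted processed signals, per the file headers, which name Feature Extraction 10.7.3.1. A value table that the authors deposited, set against the scanner values, is a linear ratio of signal to the array's 75th percentile, with no centring. The files name the build rn4.

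In R 4.3.3, each log2 processed signal was scaled by subtracting the array's 75th percentile of non-control spots, spots marked as outliers were dropped, and spots of a probe were averaged. A probe was tested where every array of either group had it well above background (18329 of 30367), and this was done with limma 3.58.1 (lmFit, eBayes, two-sided, both groups, no covariate), with Benjamini-Hochberg adjustment over all of them and a threshold of 0.05. The analysis was tested on simulated data. Names came through transcript accessions from RefSeq (GRCr8): 18004 probes had 1 symbol. Depth is limited by 3 arrays per group. Processed signals at the 75th percentile were 594 to 758 on 5 arrays and 488 on PCN array 3.

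The genes, lists and tests were chosen with earlier results of these data known. The rule for naming took every probe of the 9 genes, up to 6 genes past the test of each other list (the 2 brightest where none passed) and the 3 genes nearest in pattern to each of the 9 that passed. Genes outside it are said to be named after their values were seen, apart from Cyp2c11, Igf1r and the cell markers Alb and Ttr, which also fall outside it. The rule was not followed for the Kupffer, endothelial and cholangiocyte markers, given by counts and summed signals without naming their 2 brightest. The alternatives were 4 other scalings, normexp on the median signals (offset 50), the deposited table (0.01 added), 2 other filters, outlier spots kept, 1 probe per gene, an intensity trend, a replicate block and each array left out.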

Additional observations from a re-analysis of the deposited data

How the results depend on the processing

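Prlr kept its direction and its side of the threshold under all 18 alternatives, with changes from -1.70 to -1.20 and limma adjusted p from 0.00155 to 0.0362. Cish was called in 13 of 18 and Igfals in 10 of 18, with changes from -1.03 to -0.42 and from -1.01 to -0.61. Of the 9 genes, 3 passed in the main analysis, 4 with quantile normalization and with E1A scaling, 1 without a filter on dim probes, and 1 to 3 with an array left out. The number of probes that passed was 3459, against 5255 with E1A scaling, 2028 of 30353 without a filter, 2187 with the replicate number as a block, and 2138 to 2735 with an array left out (2138, 2200 and 2158 without control array 1, 2 or 3). The block also ended the Igfals call (limma adjusted p = 0.0919). Over all tested probes, same-numbered arrays did not deviate together (correlations of -0.0971, -0.0222 and -0.0499). A pairing that touches only some genes was not tested.

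Among the 13 probes, sign changes were seen only in values that had not passed. With E1A scaling the brightest Ghr probe gave -0.11, the dimmest Ghr probe -0.24 and Igfbp3 -0.11, and with quantile normalization Jak2 gave 0.0096. With an array left out, the dimmest Ghr probe ran from -0.021 to 0.031, Socs2 from -0.18 to 0.92 and the dimmer Cish probe from -0.93 to 0.14. The cause of these shifts was not tested. The slide could not be fitted as a block, since each holds 1 group. Cish, Stat5b and Jak2 lay below the array's 75th percentile on every array, and 3 arrays per group limit the precision.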
